A study of Mus musculus with 6 samples.

Results

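The genes described here are 38 genes of the mouse brain endothelium and its barrier, chosen by name with earlier results of these data known. They are junction and adhesion molecules, transporters, receptors, surface and secreted markers, transcription factors, and genes of vascular signaling. Of these 38 members, 37 had a row among the 60354 features of the count tables, and all 37 were among the 18580 features with enough reads to be tested. The large neutral amino acid transporter Slc7a5 was not analysed here. The members had between 32 and 11132 counts in a mouse.

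RNA was measured by RNA-seq in whole brains of 6 male C57BL/6NCrSlc mice, 3 on each of 2 diets, taken from 13 mice per diet in the study. PLDP is a porcine liver decomposition product made with a protease. The PLDP mice, numbered 17, 22 and 26, were given modified AIN-93M food of which 20% was PLDP over 16 weeks. The food of the control mice, numbered 2, 5 and 10, was also modified AIN-93M, with its total calories adjusted to match. All were 16 weeks old when the diets began, and all went through a series of behavioral tests, during which no PLDP was given, before the brains were taken on the day after the last test. Libraries of polyadenylated RNA held between 18797061 and 23938729 counts per mouse, and each mouse was a separate animal and library.

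The blood-brain barrier is formed by endothelial cells that line the brain's vessels, seal their contacts with tight junctions, keep transcytosis low and carry nutrients in and drugs out through dedicated transporters. Its features are induced and kept by Wnt/beta-catenin signals from the neural tissue and by contact with pericytes, which endothelial platelet-derived growth factor B recruits. Endothelial cells are a small share of the cells in a whole brain, so each member was read here as a small part of the RNA of the tissue.

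Of the 37 tested members, 8 were called higher in PLDP mice at an unadjusted p under 0.05 (21.6%) and 0 were called lower, where 4.91% of all tested features were called higher and 3.69% lower. The 8 were Pdgfb, Apold1, Ly6a, Pecam1, Slc2a1, Foxq1, Flt1 and Eng, with changes of means between 10.3% for Flt1 and 52.7% for Apold1. No member passed an adjusted p of 0.05 in edgeR's quasi-likelihood test, and the smallest adjusted p among them was 0.132. With DESeq2, 7 members were called higher, against 3.04% of all features, and 0 lower, against 1.95%. With limma voom, 8 were called higher and 0 lower, against 4.91% and 3.76% of all features. The members were chosen with earlier results of these data known, so these shares describe the list and do not test it. The median log2 fold change of the members was 0.096, with 27 of 37 above 0, against a median of -0.00062 over all features, of which 49.8% were above 0. Over the 29 members not called the median was 0.047, with 19 above 0 and 10 below. In whole tissue, a difference in the number of endothelial cells and a difference in RNA per endothelial cell cannot be told apart.

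**Figure D1:**
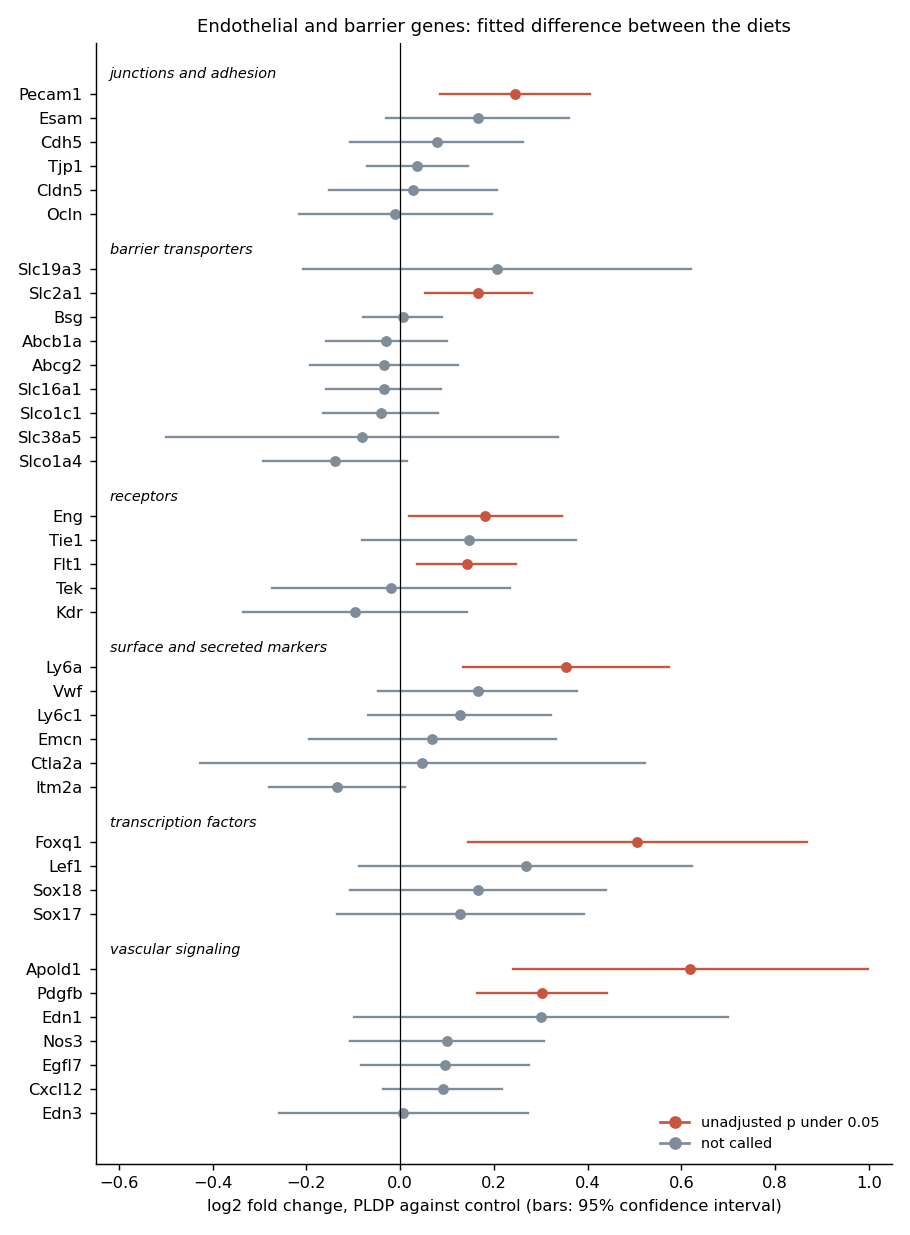
Fitted log2 fold change of PLDP against control mice for each of the 37 members, grouped by role, with the 95% confidence interval as a bar; members called at an unadjusted p under 0.05 are red and the others grey. The called members lie between 0.14 for Flt1 and 0.62 for Apold1, while the members that were not called lie between -0.14 for Slco1a4 and 0.30 for Edn1.

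The tissue label held for the vessel wall in these libraries. The defining endothelial markers Cldn5, Pecam1, Cdh5, Flt1, Slco1a4, Slco1c1 and Ly6c1 were detected in every mouse. Levels of different genes were compared as CPM, each gene's count relative to the size of its library with the libraries scaled by TMM, divided by the length of the gene's merged exons in kb. On that scale the order began with Bsg, the basigin chaperone of monocarboxylate transporters and a gene that many other brain cells also use, at 259 CPM per kb (249 to 271 over the 6 mice). Slc2a1 and Itm2a followed at 27.0 each, then Cldn5 at 20.0, Ly6a at 16.4, Ly6c1 at 16.2 and Tjp1 at 11.4 CPM per kb. The order ended with Foxq1 at 0.804 and Lef1 at 0.692 CPM per kb. In 31 of the 36 neighbouring pairs of this order the ranges over the mice overlapped, so the order was coarse. The steps without overlap were those from Bsg to Slc2a1, from Ly6c1 to Tjp1, from Tjp1 to Slc16a1, from Slc16a1 to Slco1c1 and from Abcg2 to Sox17.

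The upstream sequences of Eng, Slc2a1 and Flt1 are shown because these called members had a RefSeq promoter entry with bases before the annotated start of the gene. They are GRCm38.p6 sequences from RefSeq, printed 5′ to 3′ on the strand of the gene, and the capitals mark the letters CACCC or their reverse complement GGGTG, the box that Krüppel-like factors bind. Eng lay at chr2:32646345-32646594 on the plus strand, Slc2a1 at chr4:119108495-119108710 on the plus strand and Flt1 at chr5:147726012-147726261 on the minus strand.
Eng: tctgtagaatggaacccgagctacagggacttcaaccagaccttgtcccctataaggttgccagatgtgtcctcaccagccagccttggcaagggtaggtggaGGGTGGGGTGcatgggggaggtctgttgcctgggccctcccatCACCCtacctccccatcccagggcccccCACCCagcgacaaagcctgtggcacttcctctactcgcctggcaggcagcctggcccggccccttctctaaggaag
Slc2a1: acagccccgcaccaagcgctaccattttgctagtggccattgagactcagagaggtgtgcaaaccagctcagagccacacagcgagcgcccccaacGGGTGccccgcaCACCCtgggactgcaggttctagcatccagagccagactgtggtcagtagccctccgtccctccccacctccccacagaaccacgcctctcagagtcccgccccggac
Flt1: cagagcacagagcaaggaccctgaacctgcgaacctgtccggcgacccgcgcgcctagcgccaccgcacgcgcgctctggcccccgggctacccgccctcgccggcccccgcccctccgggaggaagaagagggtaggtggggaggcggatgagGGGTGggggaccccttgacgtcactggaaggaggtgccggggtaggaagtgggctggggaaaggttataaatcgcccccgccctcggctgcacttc
The box was present 4 times before Eng, 2 times before Slc2a1 and once before Flt1, and the printed stretches were 62.4%, 63.9% and 70.4% G and C.

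Over the 250 bases upstream of the start, 36 RefSeq promoters of 26 members could be searched on both strands. CACCC was in 26 of these 36 promoters (72.2%), against 52.0% of all 32851 promoters of the same length. The ETS letters CCGGAA were in 2 (5.56%) against 12.03%, the hypoxia response letters ACGTG in 6 (16.7%) against 16.6%, and the glucocorticoid receptor letters AGAACA in 5 (13.9%) against 16.1%. Matches can overlap, as ACGTG and its reverse complement do within CACGTG. The member promoters were also richer in G and C, with a median of 58.2% against 52.4%. A match is a description of letters in this window and not a measured binding site.

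Among the 6 junction and adhesion genes, 1 was called higher, against 4.91% of all features, and the median log2 fold change was 0.06. Pecam1, the adhesion molecule CD31 of endothelial contacts (chr11:106654217-106750628), measured 17.2, 16.4 and 16.2 CPM in control mice 2, 5 and 10 and 20.7, 18.9 and 19.3 CPM in PLDP mice 17, 22 and 26. All 3 PLDP mice lay above all 3 control mice. The means were 16.6 ± 0.565 and 19.7 ± 0.954 CPM (SD, n = 3 each). The log2 fold change was 0.25 (SE 0.08) with an edgeR adjusted p of 0.336, and the call was kept whichever mouse was left out, with log2 fold changes of 0.21 to 0.27.

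The other junction genes were not called in the fit of all 6 mice. Cldn5, the main claudin of the barrier, measured 27.9, 30.1 and 26.0 CPM in the control mice and 32.8, 27.0 and 25.9 CPM in PLDP mice 17, 22 and 26. Only mouse 17 was above every control mouse, and mouse 26 was the lowest of the 6. Its log2 fold change of 0.03 had a 95% confidence interval of -0.15 to 0.21 (edgeR adjusted p = 0.961), and its sign turned without PLDP mouse 17 (-0.08) and without control mouse 10 (-0.02). Cdh5, the cadherin of endothelial adherens junctions, measured 11.9, 12.2 and 12.5 CPM in control mice and 13.1, 13.5 and 12.03 CPM in PLDP mice. The diets overlapped, and the log2 fold change of 0.08 had an interval of -0.11 to 0.26 (edgeR adjusted p = 0.86). Ocln, the membrane protein occludin of tight junctions, and the scaffold Tjp1 had log2 fold changes of -0.01 and 0.04. Esam, an immunoglobulin adhesion molecule of endothelial junctions, was at 12.6, 12.5 and 13.4 CPM in control mice and 16.0, 13.9 and 13.1 CPM in PLDP mice. Mouse 17 stood highest there and mouse 26 within the control range, and the log2 fold change of 0.17 (interval -0.03 to 0.36) was called only when PLDP mouse 26 was left out.

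Of the 9 tested transporters, 1 was called higher, against 4.91% of all features. The log2 fold changes of 6 were below 0, and the median of the 9 was -0.03. Slc2a1, the glucose transporter GLUT1 of the barrier (chr4:119108711-119137983), measured 83.1, 90.2 and 94.5 CPM in control mice and 95.5, 99.9 and 105 CPM in PLDP mice. The diets did not overlap, but control mouse 10 and PLDP mouse 17 were 1.02 CPM apart. Its log2 fold change was 0.17 (SE 0.05, edgeR adjusted p = 0.363), and without control mouse 2, the lowest, it was 0.12 and not called. An antisense gene shares 105 of the 3506 exon bases of Slc2a1.

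Drug efflux pumps and organic anion transporters had values near or below those of control mice. Abcb1a, which encodes P-glycoprotein, measured 35.6, 35.9 and 38.6 CPM in control mice and 36.7, 37.1 and 34.0 CPM in PLDP mice. The diets overlapped, with a log2 fold change of -0.03 and an interval of -0.16 to 0.10 (edgeR adjusted p = 0.936), and leaving out control mouse 10 or PLDP mouse 26 turned the sign (0.01 in both). A gene on the other strand shares 553 exon bases with Abcb1a. Abcg2, the second efflux pump, had a log2 fold change of -0.03. Slco1a4, an organic anion transporter, measured 49.4, 52.2 and 45.6 CPM in control mice and 49.2, 44.7 and 39.4 CPM in PLDP mice. Its log2 fold change of -0.14 had an interval of -0.29 to 0.01 and was the lowest among the members. Slco1a4 was called lower without control mouse 10 and without PLDP mouse 17 (at its lowest -0.22), and with all 6 mice only when no filter on low counts was used.

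The other transporters were not called. Slco1c1, a carrier of thyroxine, and Slc16a1, the monocarboxylate transporter MCT1, had log2 fold changes of -0.04 and -0.03. Bsg, the partner of MCT1, was measured most precisely, at 0.01 with an interval of -0.08 to 0.09. The glutamine and histidine carrier Slc38a5 and the thiamine carrier Slc19a3 had few counts, and their intervals ran from -0.50 to 0.34 and from -0.21 to 0.62. Slc19a3 measured 2.55, 3.58 and 3.35 CPM in control mice and 2.70, 3.73 and 4.60 CPM in PLDP mice, with overlap between the diets.

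Of the 5 receptors, 2 were called higher, against 4.91% of all features, and the median log2 fold change was 0.14. Flt1, the VEGF receptor 1 that binds VEGF-A tightly and signals weakly (chr5:147561604-147726011), measured 56.2, 53.9 and 55.6 CPM in control mice and 58.6, 62.1 and 62.1 CPM in PLDP mice. All PLDP mice lay above all control mice. The means were 55.2 ± 1.22 and 60.9 ± 1.98 CPM (SD, n = 3 each), with a log2 fold change of 0.14 (SE 0.05, edgeR adjusted p = 0.436). The call was lost without control mouse 5, where the log2 fold change was 0.12.

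Eng, endoglin, a co-receptor for BMP9 and TGF-beta (chr2:32646595-32682669), measured 16.5, 18.4 and 16.2 CPM in control mice and 19.5, 19.6 and 18.8 CPM in PLDP mice. The diets were separated by 0.387 CPM, between control mouse 5 and PLDP mouse 26. Its log2 fold change was 0.18 (SE 0.08, edgeR adjusted p = 0.522), and this call was the least stable of the 8: it was lost with DESeq2, where the log2 fold change was 0.18, and without control mouse 2 (0.16), control mouse 10 (0.14), PLDP mouse 17 (0.17) or PLDP mouse 22 (0.17). Eng shares 61 exon bases with the neighbouring gene Fpgs on the other strand.

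The receptors that carry most VEGF and angiopoietin signals were not called. Kdr, the VEGF receptor 2, measured 11.9, 11.7 and 9.36 CPM in control mice and 10.6, 11.2 and 8.98 CPM in PLDP mice, with a log2 fold change of -0.10 and an interval of -0.34 to 0.14. Tek, the angiopoietin receptor Tie2, had a log2 fold change of -0.02 with an interval of -0.27 to 0.23. Tie1, its partner, measured 12.1, 11.2 and 9.65 CPM in control mice and 13.6, 11.99 and 10.8 CPM in PLDP mice. In all 3 of these genes control mouse 10 was the lowest control and mouse 26 the lowest PLDP mouse, and the diets overlapped.

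**Figure D2:**
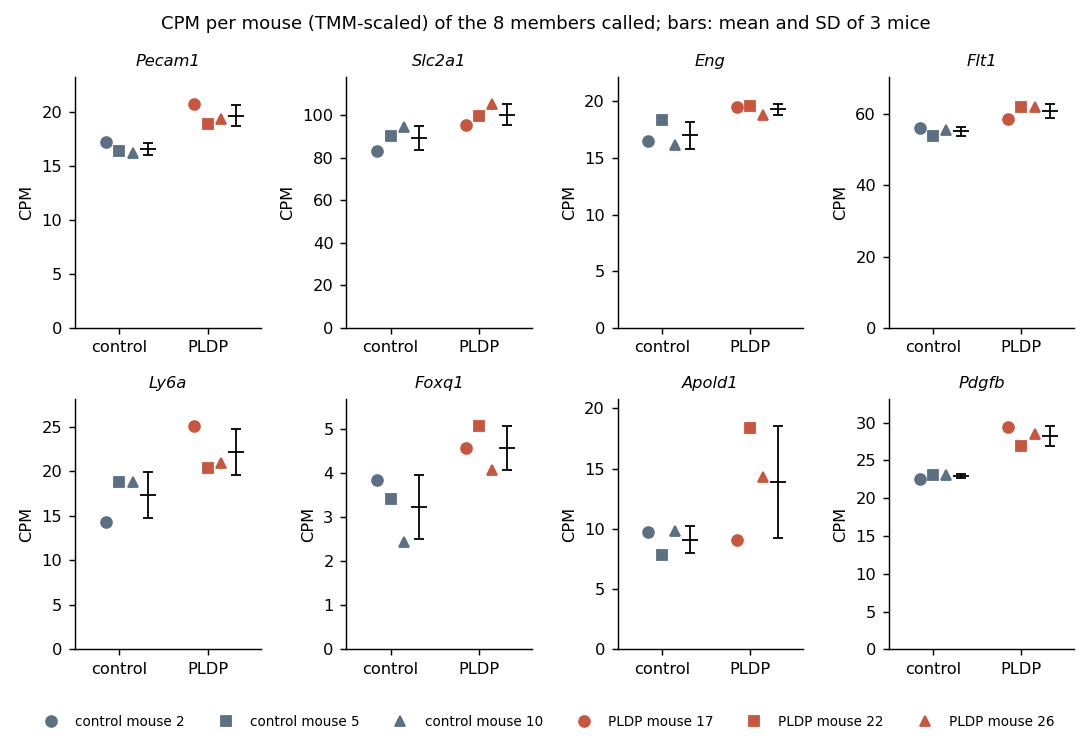
CPM (counts relative to library size, TMM-scaled) in each mouse for the 8 members called higher, control mice in grey-blue and PLDP mice in red, with the mean and SD of the 3 mice of each diet in black. In Pdgfb the PLDP mice (26.9 to 29.5 CPM) lie well above the control mice (22.6 to 23.1 CPM), while in Apold1 PLDP mouse 17 (9.07 CPM) lies within the control range.

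Among the 6 surface and secreted markers, 1 was called higher, against 4.91% of all features, and the median log2 fold change was 0.10. Ly6a, the surface protein Sca-1, abundant on brain endothelium (chr15:74994877-74998031), measured 14.3, 18.9 and 18.8 CPM in control mice and 25.2, 20.4 and 21.0 CPM in PLDP mice. Control mouse 2 was the lowest and PLDP mouse 17 the highest, and the remaining 4 mice lay between 18.8 and 21.0 CPM. The log2 fold change was 0.35 (SE 0.10, edgeR adjusted p = 0.306), and it was called whichever mouse was left out, at 0.23 to 0.42.

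Ly6c1, a related surface protein, measured 24.4, 23.5 and 30.0 CPM in control mice and 30.5, 24.9 and 29.8 CPM in PLDP mice. Its log2 fold change of 0.13 had an interval of -0.07 to 0.32, and it was called without control mouse 10 or without PLDP mouse 22. Ly6c1 has a near-identical neighbour, Ly6c2, and how reads shared by such copies were counted is not given in the sources used here. Vwf, the von Willebrand factor of endothelial storage granules, measured 13.8, 16.1 and 18.7 CPM in control mice and 17.8, 19.7 and 16.9 CPM in PLDP mice, a log2 fold change of 0.17 that was called only without control mouse 10. Emcn, the sialomucin endomucin, and Ctla2a, a cysteine protease inhibitor, had log2 fold changes of 0.07 and 0.05, the latter with an interval of -0.43 to 0.52. Ctla2a shares 343 exon bases with Gm49391 and 44 with Gm49393, protein-coding genes on its own strand, so its counts are less certain.

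Itm2a, an integral membrane protein enriched in brain endothelium, was among the members with the highest level per length and lay below 0. It measured 49.6, 51.8 and 46.4 CPM in control mice and 47.1, 47.7 and 39.6 CPM in PLDP mice. The diets overlapped through control mouse 10. The log2 fold change of -0.13 had an interval of -0.28 to 0.01 (edgeR adjusted p = 0.612) and was called lower without control mouse 10, without PLDP mouse 17 or without PLDP mouse 22, at -0.18 in the lowest of the 6 fits, and with all 6 mice only when no filter on low counts was used.

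All 4 transcription factors had log2 fold changes above 0, between 0.13 and 0.51, and 1 was called higher, against 4.91% of all features. Foxq1, a forkhead factor of brain endothelium (chr13:31556134-31560976), measured 3.85, 3.40 and 2.42 CPM in control mice and 4.56, 5.07 and 4.06 CPM in PLDP mice. The diets did not overlap, and control mouse 10 was the lowest. Its counts were low, 50 to 121 per mouse, and its log2 fold change of 0.51 had an SE of 0.17 (edgeR adjusted p = 0.399). Without control mouse 10 it was 0.34 and not called. A530084C06Rik on the other strand shares 3200 of the 4843 exon bases of Foxq1 and measured 0.479 to 1.44 CPM. The libraries were stranded, but whether the counting used strand is not given in the sources used here.

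Sox18, a SoxF factor of endothelial identity, measured 4.43, 4.40 and 4.17 CPM in control mice and 4.84, 4.74 and 5.02 CPM in PLDP mice. It was the one member whose diets did not overlap without a call, with a log2 fold change of 0.17 (SE 0.13, edgeR adjusted p = 0.768). Its relative Sox17 had 0.13. Lef1, the nuclear partner of beta-catenin in the Wnt response, measured 5.92, 5.53 and 5.09 CPM in control mice and 4.56, 7.88 and 7.48 CPM in PLDP mice. PLDP mouse 17 was the lowest of all 6 mice and mice 22 and 26 the highest. The log2 fold change was 0.27 with an interval of -0.09 to 0.62, and it was 0.48 and called without PLDP mouse 17. Antisense genes share 1208 exon bases with Lef1, 804 with Sox17 and 1040 with Nos3. Nos3 also shares 294 exon bases with the protein-coding gene Atg9b on the other strand.

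Among the 7 genes of vascular signaling, all had log2 fold changes above 0, and the median was 0.10. Of the 7, 2 were called higher, against 4.91% of all features. Pdgfb, the endothelial growth factor that recruits pericytes (chr15:79995874-80014977), measured 22.6, 23.1 and 23.0 CPM in control mice and 29.5, 26.9 and 28.5 CPM in PLDP mice. The control mice lay close together, and the lowest PLDP mouse lay 3.74 CPM above the highest control mouse. The means were 22.9 ± 0.28 and 28.3 ± 1.32 CPM (SD, n = 3 each), a 23.4% difference. The log2 fold change was 0.30 (SE 0.07) with the smallest adjusted p among the members, 0.132 in edgeR, and it was called whichever mouse was left out, at 0.27 to 0.34. Neurons also express Pdgfb, and whole-brain RNA does not separate the sources.

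Apold1, an endothelial early response gene of the apolipoprotein L domain family (chr6:134981718-134986836), measured 9.72, 7.80 and 9.80 CPM in control mice and 9.07, 18.4 and 14.3 CPM in PLDP mice. Mice 22 and 26 were above every control mouse, and mouse 17 was within the control range. Its log2 fold change of 0.62 (SE 0.18, edgeR adjusted p = 0.306) was the highest among the members. The means were 9.11 ± 1.13 CPM in control mice and 13.9 ± 4.66 CPM in PLDP mice (SD, n = 3 each). It was 0.85 without PLDP mouse 17, with an edgeR adjusted p of 0.00086, and 0.35 without PLDP mouse 22, with an adjusted p of 0.605.

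The other vascular signaling genes were not called. Edn1, the vasoconstrictor endothelin 1, measured 1.78, 2.18 and 2.67 CPM in control mice and 2.79, 2.599 and 2.78 CPM in PLDP mice. Control mouse 10 lay among the PLDP mice, and the log2 fold change of 0.30 (interval -0.10 to 0.70) was called without that mouse. Nos3, the endothelial nitric oxide synthase, had a log2 fold change of 0.10, Egfl7, a secreted protein of the vessel matrix, 0.10, and the chemokine Cxcl12 0.09. Edn3, another endothelin, was at 0.01. Egfl7 shares 264 exon bases with a read-through gene on its own strand, so its counts are less certain.

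The precision of these values was higher, on the whole, where counts were higher. In the 13 members with a mean over 500 counts per mouse the SE of the log2 fold change was 0.04 to 0.09, in the 18 members with means of 100 to 500 counts it was 0.07 to 0.18, and in the 6 members under 100 counts it was 0.13 to 0.22. The SE also holds the spread between mice, as in Apold1 at 0.18.

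Mouse by mouse, all 3 PLDP mice lay above all 3 control mice in 8 members (21.6%), against 7.29% of all tested features, and below them in 0, against 6.9% of all features. The 8 were the called members other than Apold1, and Sox18. The median log2 ratio of the 37 members to the control mean was 0.10 in mouse 17, 0.12 in mouse 22 and 0.03 in mouse 26, and it was 0.01, 0.02 and -0.03 in control mice 2, 5 and 10. Over the 29 members not called, this median was 0.10, 0.01 and 0.002 in PLDP mice 17, 22 and 26. In control mice 2, 5 and 10 it was 0.01, 0.03 and -0.04. The summed level of the members not called was 1010 to 1085 CPM in PLDP mice and 1021 to 1054 CPM in control mice, with overlap.

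**Figure D3:**
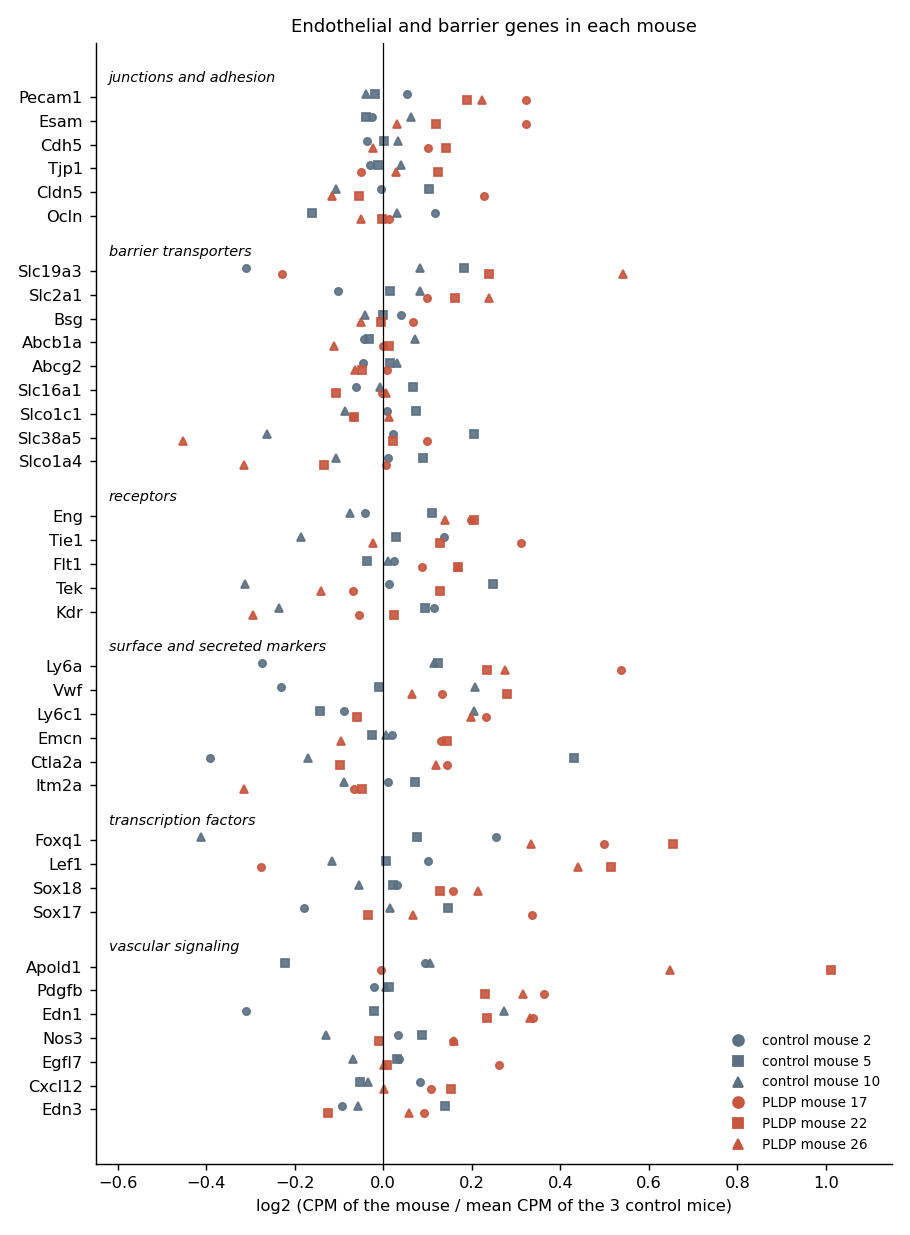
Log2 ratio of each mouse's CPM to the mean of the 3 control mice, for the 37 members grouped by role, with control mice in grey-blue and PLDP mice in red and a symbol for each mouse. Over all members the median is 0.10, 0.12 and 0.03 in PLDP mice 17, 22 and 26, and PLDP mouse 17 (red circles) lies high for Ly6a and low for Lef1.

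PLDP mice 17, 22 and 26 did not hold 1 order across the called members. Pdgfb, Pecam1 and Ly6a were highest in mouse 17, Slc2a1 in mouse 26, and Foxq1, Eng and Apold1 in mouse 22. Apold1 had company outside the members. Klf2, the flow-responsive factor of endothelium, measured 14.3, 12.7 and 12.8 CPM in control mice and 16.0, 27.0 and 25.1 CPM in PLDP mice, with a log2 fold change of 0.78 and an edgeR adjusted p of 0.0735. Klf4, its relative, measured 8.37, 7.85 and 7.13 CPM in control mice and 8.97, 19.0 and 14.5 CPM in PLDP mice, with 0.87 and an adjusted p of 0.132. In both genes mouse 17 was the PLDP mouse nearest to the control mice, as in Apold1.

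Immediate early genes, which neurons and vessel cells switch on within minutes of a stimulus, also differed among the PLDP mice. Of 12 tested, 4 were called higher, against 4.91% of all features, none of the 12 separated the diets, and the median log2 fold change was 0.15. Their summed level was 798 to 917 CPM in control mice and 756, 1046 and 1144 CPM in PLDP mice 17, 22 and 26, so that mouse 17 lay below the control mice. Ccn1, a matricellular protein of this class, measured 8.56, 7.49 and 6.45 CPM in control mice and 6.97, 14.05 and 13.9 CPM in PLDP mice. Dusp1, a phosphatase of MAP kinases, and Arc, a neuronal activity gene, had log2 fold changes of 0.32 and 0.26, which ran from 0.15 to 0.52 and from 0.10 to 0.43 with each mouse left out. Ccn1 stayed called in all 6 of these fits, while Dusp1 lost its call without control mouse 10 or PLDP mouse 22 or 26, Arc without those mice or control mouse 2, and Fosb, the fourth call, in 5 of 6 fits. The part of this class in the values of Apold1 was not tested.

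**Figure D4:**
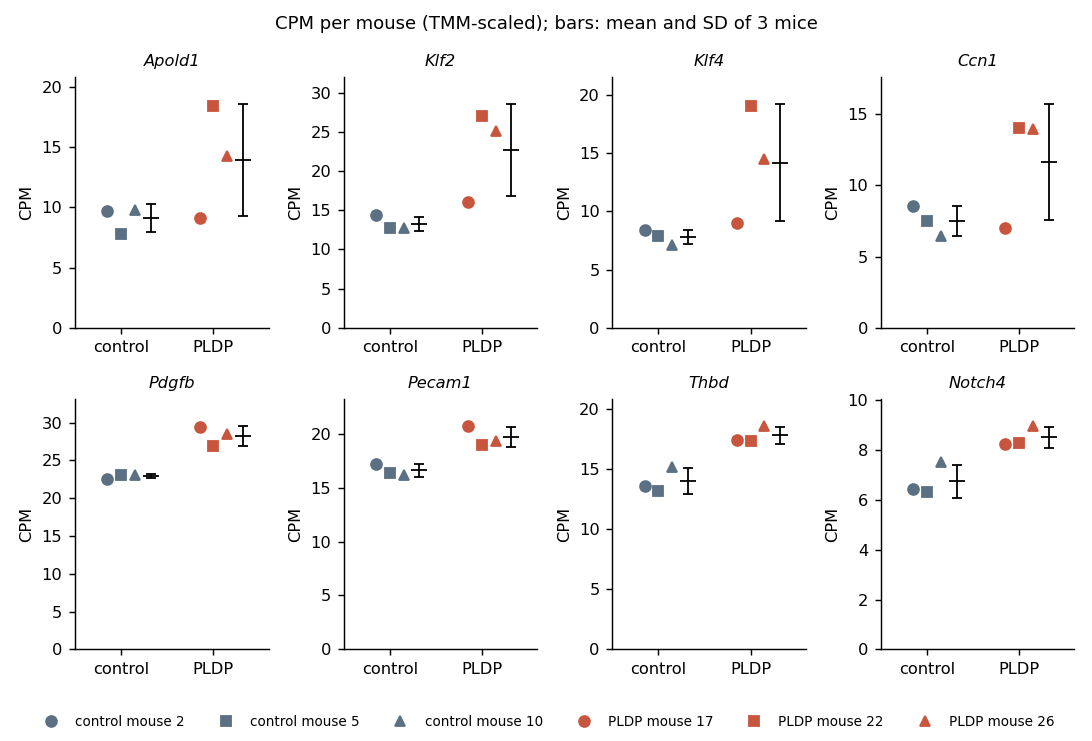
CPM (TMM-scaled) in each mouse for Apold1, Klf2, Klf4 and Ccn1 in the upper row and for Pdgfb, Pecam1, Thbd and Notch4 in the lower row, with the mean and SD of 3 mice per diet in black. In the upper row PLDP mouse 17 (9.07 CPM for Apold1, 16.0 for Klf2) lies apart from mice 22 and 26, and in the lower row the 3 PLDP mice lie together above the control mice.

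Other genes of the pathways that the members belong to were taken from 8 lists, of which 118 genes were tested. Together 13 of the 118 were called higher, against 4.91% of all features, and 3 lower, against 3.69%, and the median log2 fold change was 0.02. In VEGF and angiopoietin signaling, 2 of 18 were called higher and 1 lower. Ptprb, the endothelial phosphatase VE-PTP that restrains Tie2, had a log2 fold change of 0.19, Acvrl1, the ALK1 receptor that works with endoglin, 0.21, and Id3, a target of BMP signaling, -0.17. With each mouse left out, Ptprb lost its call without control mouse 5 or PLDP mouse 22 (0.13 at the lowest), Acvrl1 without control mouse 2 or 10 or PLDP mouse 17 or 22, and Id3 without control mouse 2 or 5 or PLDP mouse 22 or 26. The ligands Vegfa (-0.03) and Vegfb (0.02) were not called, nor were Angpt1 (-0.10) and Angpt2 (0.11). In the Wnt/beta-catenin barrier program, 0 of 17 were called by edgeR at an unadjusted p under 0.05, and the median log2 fold change was -0.01.

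Among 15 other endothelial transcription factors, 3 were called higher, namely Klf2, Klf4 and Epas1, the hypoxia-inducible factor HIF-2alpha, which had a log2 fold change of 0.13, and the median was 0.13. Of 14 Notch and arterial genes, 1 was called higher. This was Notch4, the endothelial Notch receptor, at 6.45, 6.31 and 7.52 CPM in control mice and 8.23, 8.30 and 8.98 CPM in PLDP mice (log2 fold change 0.33, edgeR adjusted p = 0.399). Of 10 tested genes of endothelial activation and clotting, 1 was called higher. Thbd, thrombomodulin, which turns thrombin toward anticoagulation, measured 13.6, 13.2 and 15.2 CPM in control mice and 17.4, 17.4 and 18.6 CPM in PLDP mice (log2 fold change 0.35, edgeR adjusted p = 0.19). The diets did not overlap in Notch4 or Thbd, and both, like Klf2, Klf4 and Epas1, stayed called whichever mouse was left out. The leukocyte adhesion molecules Icam1 (-0.08) and Vcam1 (-0.11) were not called, and Sele, Selp, Ackr1 and Lcn2 had too few counts to be tested.

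Of 14 other junction genes, 1 was called higher, the catenin Ctnnd1 at 0.23, kept in 2 of 6 fits with a mouse left out (lost without control mouse 2 or 5 or PLDP mouse 22 or 26). Among 19 other transport genes, 2 were called higher and 1 lower. The lipoprotein receptor Lrp8 and the caveolar coat protein Cavin1 had log2 fold changes of 0.13 and 0.15, and each was also kept in 2 of 6. Lrp8 was lost without control mouse 5 or 10 or PLDP mouse 22 or 26 (0.08 at the lowest), and Cavin1 without control mouse 2 or 5 or PLDP mouse 17 or 22. Caveolin itself, Cav1, was at -0.06, and Mfsd2a, the lipid carrier that keeps transcytosis low, at 0.18 without a call. Among 11 partners of endothelin, chemokine and PDGF signaling, 3 were called higher and 1 lower. The endothelin-converting enzymes Ece1 and Ece2 had 0.16 and 0.51, and Gucy1a1, a subunit of the nitric oxide receptor, -0.11. The call of Ece1 was lost without PLDP mouse 22, that of Gucy1a1 without control mouse 5 or 10 or PLDP mouse 22 or 26, and that of Ece2, with 23 to 41 counts per mouse, in all 6 fits except that without control mouse 10. Pdgfrb, the pericyte receptor for Pdgfb, measured 19.2, 17.7 and 18.8 CPM in control mice and 19.5, 17.5 and 16.4 CPM in PLDP mice, and its log2 fold change of -0.06 had an interval of -0.23 to 0.11.

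**Figure D5:**
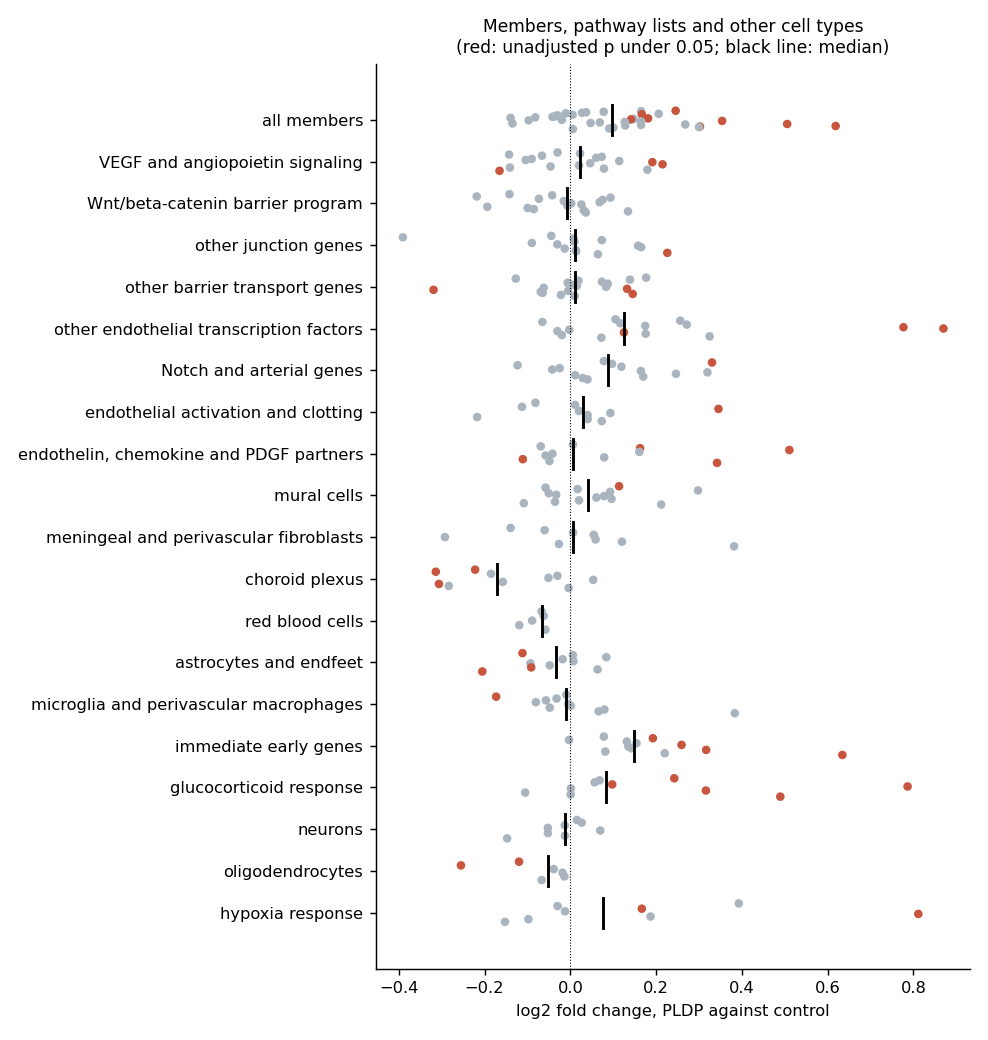
Log2 fold change of PLDP against control mice for the members, the 8 pathway lists and the lists of other cell types and responses, 1 point per tested gene, red where the unadjusted p was under 0.05, with the median of each list as a black line. The median of the members is 0.10 and that of the 14 tested mural cell genes 0.04, while that of the 10 choroid plexus genes is -0.17.

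Lists of markers for the cells next to the endothelium had lower medians than the members. Of all features, 4.91% were called higher and 3.69% lower. Of 14 mural cell genes, 1 was called higher, Rgs5, a pericyte regulator of G protein signaling, with a log2 fold change of 0.11, lost without control mouse 2 or 5 or PLDP mouse 26. Their summed level was 245 to 252 CPM in control mice and 248 to 268 CPM in PLDP mice. Of 9 tested genes of meningeal and perivascular fibroblasts, 0 were called, with summed levels of 105 to 130 and 112 to 125 CPM. Red blood cell genes, 5 tested, had 0 calls and a median of -0.07, with summed levels of 326 to 585 and 401 to 493 CPM. Of 10 choroid plexus genes, 3 were called lower, the thyroxine carrier Ttr (-0.22), coagulation factor F5 (-0.31) and the folate receptor Folr1 (-0.31), and the summed level was 778 to 839 CPM in control mice and 612 to 778 CPM in PLDP mice. Ttr stayed called whichever mouse was left out (-0.30 to -0.14), while F5 (-0.49 to -0.20) was lost without control mouse 5 or PLDP mouse 17 or 26, and Folr1 (-0.43 to -0.20) without control mouse 2 or 5 or PLDP mouse 17. Of 10 astrocyte genes, 3 were called lower, the endfoot water channel Aqp4 (-0.11), the endfoot membrane protein Mlc1 (-0.09) and the growth factor receptor Fgfr3 (-0.21), with summed levels of 4103 to 4196 and 4084 to 4194 CPM. Fgfr3 stayed called in all 6 fits with a mouse left out, Aqp4 in 3 (lost without control mouse 10 or PLDP mouse 17 or 26) and Mlc1 in 2 (lost without control mouse 2 or 5 or PLDP mouse 22 or 26). Of 11 genes of microglia and perivascular macrophages, 1 was called lower, the ADP receptor P2ry12 (-0.17), with summed levels of 355 to 367 and 341 to 355 CPM, and this call was lost without control mouse 5 or PLDP mouse 17 or 22 (-0.09 at the highest). None of the defining markers of these cells was at 0 in any mouse, and the part of these cells in the values of the members was not tested.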

How the data were processed

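The authors deposited 1 table per mouse of whole-number read counts per gene, not normalized. The submitters' processing notes name cutadapt 2.9, HISAT2 2.2.0, featureCounts 2.6.0 and DESeq2 1.6.3, with the build GRCm38 and also GRCh38. The strand setting, annotation release and treatment of shared reads are not given in the sources used here. Of 60354 features, 55034 had Ensembl identifiers, of which 54777 matched GENCODE M21 (GRCm38), the source of symbols, positions and exon lengths. The 5320 numbered features were kept under their own names.

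The main test was edgeR 4.0.16 in R 4.3.3 (filterByExpr with a minimum count of 10 and minimum total of 15 by diet, TMM, glmQLFit and glmQLFTest, diet as the only term) on the whole table. Calls were made at an unadjusted p under 0.05, with Benjamini-Hochberg values over 18580 features beside them. The study selected genes at a p under 0.05 and does not state whether its p-values were adjusted. Alternatives were other scalings and filters, DESeq2 1.42.0, limma 3.58.1 voom and each mouse left out. In counts simulated for this comparison with 18580 genes, 198 of 200 genes with a 2-fold change passed an adjusted p of 0.05, as did 17 genes simulated without a change. The 200 were drawn only from genes above a minimum mean count, so changes in genes with fewer counts were not simulated. Smaller changes, such as those of the called members, were not simulated. Python 3.11.15, pandas 2.3.3 and matplotlib 3.10.9 were used for the summaries.

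The members and gene lists were chosen with earlier results of these data known. By rule, all members are accounted for, called members and defining markers get values in every mouse, members with a large change within a role group likewise, and up to 3 called genes are named from each other list. Vegfa, Vegfb, Angpt1, Angpt2, Icam1, Vcam1, Cav1, Mfsd2a and Pdgfrb fall outside this rule and were named after their values were seen. A few genes of these other lists are not reported here by name.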

Additional observations from a re-analysis of the deposited data

How the results depend on the processing

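With 3 mice per diet and small differences, the adjusted p-values limit what can be said of any single member. The count of members called higher was 8 under each change of scaling, of filter and with limma voom, 7 with DESeq2, and 6 to 9 when each mouse was left out, with 6 without control mouse 2. The share of all features called higher was 3.64% without a filter, 3.04% with DESeq2, up to 5.37% (upper quartile) under the other scalings, and 3.36% (without control mouse 2) to 6.86% (without PLDP mouse 17) over the left-out mice. Members called lower were 0, except 2 (Itm2a and Slco1a4) without a filter on low counts, where 2.898% of all features were called lower, and 0 to 2 over the left-out mice, with 2 without control mouse 10 or PLDP mouse 17 and 1 without PLDP mouse 22, where 3.55%, 5.69% and 3.98% of all features were called lower. The median log2 fold change stayed between 0.07 and 0.12. Members whose diets did not overlap numbered 10 to 15 over the left-out mice, where 2 mice stand against 3, with 15 (40.5%) without control mouse 10 and 13 (35.1%) without PLDP mouse 17. Of all features, 25.4% and 29.5% did not overlap in these 2 comparisons, and 22.0% to 29.5% over the left-out mice, against 14.2% with all mice. The log2 fold change of Abcb1a ran from -0.055 to 0.0067 and that of Cldn5 from -0.084 to 0.089 over the left-out mice, crossing 0. At an adjusted p under 0.05, 3 members passed without a filter (Apold1, Ly6a and Pdgfb, edgeR adjusted p = 5.47e-06, 0.00915 and 0.022) and 1 (Apold1) without PLDP mouse 17, while 0 passed in the fit of all mice and under the other settings, and the cause was not tested. DESeq2 gave no adjusted p for Apold1 and Foxq1. Over the settings that gave a value, the adjusted p ran up to 0.71 for Apold1, 0.821 for Ly6a and 0.526 for Pdgfb. Of the values of the 11 members followed singly, 131 kept direction and side of the threshold, 8 lost the call and 4 changed sign. No paired analysis was possible because the mouse numbers are not shared between the diets.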

Other observations

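Genes that glucocorticoids induce, some of them in vessel cells, also had calls. Of 10 tested, 5 were called higher, against 4.91% of all features, and 0 lower, against 3.69%, and the median log2 fold change was 0.08. Zbtb16, a zinc finger factor, measured 19.5, 16.5 and 18.6 CPM in control mice and 21.1, 36.3 and 36.9 CPM in PLDP mice 17, 22 and 26, with a log2 fold change of 0.79 and an edgeR adjusted p of 0.0785, and mouse 17 again lay nearest to the control mice. Fkbp5, a co-chaperone of the glucocorticoid receptor, measured 33.5, 32.2 and 38.5 CPM in control mice and 41.7, 38.3 and 43.3 CPM in PLDP mice, and Cdkn1a, a cell cycle inhibitor, had a log2 fold change of 0.32. These 3 stayed called whichever mouse was left out.

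Of 8 hypoxia response genes, 4 had log2 fold changes below 0, the median was 0.08, 0 were called lower and 2 were called higher, the member Slc2a1 and Hif3a, which encodes a further HIF alpha subunit. In 1 of the 8, Egln3, a HIF prolyl hydroxylase, which is named here after its values were seen, all PLDP mice lay below all control mice (-0.15, not called). Hif3a measured 3.13, 4.49 and 4.95 CPM in control mice and 6.79, 7.13 and 8.23 CPM in PLDP mice, without overlap (log2 fold change 0.81, edgeR adjusted p = 0.0785), and it stayed called whichever mouse was left out. Of 6 oligodendrocyte genes, 2 were called lower, among them Mbp, a main protein of myelin (-0.12, lost without control mouse 5 or PLDP mouse 22 or 26), all 6 had log2 fold changes below 0, and the median was -0.05. Of 8 neuronal genes 0 were called, with summed levels of 5227 to 5357 CPM in control mice and 5222 to 5411 CPM in PLDP mice.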
